A study of Mus musculus with 6 samples.

Results

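The genes described here encode the machinery that licenses replication origins and runs the replication fork. They are 51 genes chosen by symbol from their known roles, although with earlier results of these data known. Of these, 50 had a probe set annotated to that symbol alone and were measured among 18193 genes in all, and Chaf1a was not analysed here. All cultures were Ba/F3 cells, labelled as an interleukin-3-dependent mouse pro-B line, that had been given a SPAG9-JAK2 construct by retrovirus. The construct was under a doxycycline-dependent (Tet-On) system. Induced cells (SPAG9-JAK2(+), 3 arrays) received doxycycline at 500 ng/ml, and uninduced cells (SPAG9-JAK2(-), 3 arrays) carried the same construct and received none. RNA was taken after 48 hours in both groups. Doxycycline and the fusion changed together, and no array held cells given the drug without the construct, so drug and fusion cannot be told apart. The labels do not say whether the line is a single clone or whether interleukin-3 was present.

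DNA is copied once per cell cycle because helicases are loaded onto origins only in G1 and are started only in S phase. The origin recognition complex (ORC), Cdc6 and Cdt1 place the ring-shaped MCM helicase on DNA, and geminin (Gmnn) blocks Cdt1 afterwards. The kinase Cdc7 with Dbf4, together with Cdc45 and GINS, then turns the ring into a moving helicase, behind which the polymerases, the sliding clamp PCNA and the chromatin factors follow. Many of these genes are transcribed in late G1 under E2F transcription factors, and their RNA is therefore a common readout of how many cells of a culture are cycling.

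Uninduced replicate 1 stood apart from its group, and induced replicate 1 did so to a lesser degree. Over the 18193 genes, each by its brightest probe set, uninduced replicate 1 correlated with the induced arrays at r of 0.971, 0.965 and 0.967. With uninduced replicates 2 and 3 it correlated at 0.963 and 0.964. Over the 10693 genes at or above the median level of all probe sets, its median absolute log2 difference was 0.245 to 0.314 from the induced arrays. From the uninduced ones it was 0.369 and 0.339. It was thus closer to the arrays of the other group than to its own, and results that rest on it are given with and without it. By the same measure induced replicate 1 differed by 0.268 and 0.236 from induced replicates 2 and 3, which differed from each other by 0.146. From uninduced replicate 1 it differed by 0.245.

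Replication genes as a group lay at higher levels in induced cells, although no single member passed the threshold over all genes. The log2 fold change was positive in 48 of the 50, against 44.1% of all genes. The fold change is the difference between induced and uninduced means of log2(signal + 16), and its median was 0.54 over the members and -0.06 over all genes. With 0.187% of all genes past an adjusted p of 0.05 in limma, 0 of the 50 members passed, and the smallest adjusted p among them was 0.0599, for Gins1. At an unadjusted p under 0.05 in the same limma fit there were 29 higher and 0 lower members, where 7.14% of all genes were higher and 10.3% lower. In 36 members all 3 induced arrays lay above all 3 uninduced arrays, as they did for 10.7% of all genes. In 1 member, Orc5, they all lay below, as for 13.4% of all genes. All 50 were expressed above the middle of the array, at mean levels no lower than the median probe set (5.94 on the log2 scale). Among the 10693 genes at or above that median, 45.1% had a positive fold change. Of the 10693, 9.81% were higher at an unadjusted p under 0.05 in limma and 15.1% did not overlap with induced arrays higher. Members ran from 8.90 to 14.44, so this set also holds dimmer genes and is not matched to them in level. Of 11 measured housekeeping genes 10 were positive, with a median of 0.20. In 4 of the 11 all induced arrays lay above all uninduced ones, and in 1 all lay below. In size, 4 members differed by 1 or more on the log2 scale (Gins1, Orc1, Fen1 and Mcm2), 24 lay between 0.5 and 1, 20 between 0 and 0.5, and 2 below 0.

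**Figure D1:**
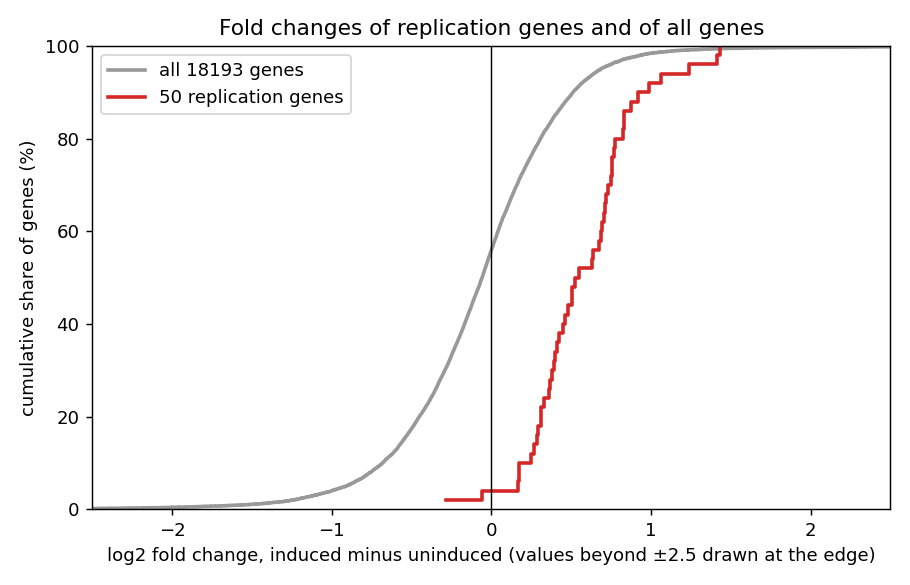
Cumulative share of genes (vertical axis, percent) against the log2 fold change of induced over uninduced cells (horizontal axis), for the 50 replication genes (red) and all 18193 genes (grey). The median of the replication genes is 0.54 and that of all genes is -0.06.

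The count of members past the threshold depended on 1 array and on the settings. Without uninduced replicate 1, limma called 19 members higher and 0 lower at an adjusted p of 0.05, where it called 3.22% of all genes higher and 4.77% lower. Of the 11 measured housekeeping genes it then called 3 higher and 1 lower. Without either array numbered 1 it called 14 higher and 0 lower, where 2.88% of all genes were higher and 5.24% lower, and 13 of those 14 were among the 19. The 19 were Orc1, Orc2, Cdc6, Mcm2, Mcm5, Mcm7, Mcm10, Gins1, Gins2, Rfc3, Rfc5, Pola2, Pole2, Rpa2, Fen1, Clspn, Tipin, Chaf1b and Uhrf1. In 37 members uninduced replicate 1 lay above both other uninduced arrays, as it did for 46.9% of all genes, and the median distance from the mean of those 2 arrays was 0.30 on the log2 scale. In 7 members, among them Mcm3 and Mcm6, it lay below both.

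With all 6 arrays, limma called 14 members higher when the genes below the median level were left out (1.35% of the genes then tested were higher and 1.85% lower). It called the same 14 with a pseudocount of 64 (0.671% higher and 0.731% lower) and 19 with a trended and robust variance (1.3% higher and 1.72% lower). With median centring it called 1, Gins1 (0.132% higher and 0.033% lower), and likewise with a filter at the 25th percentile (0.155% higher and 0.114% lower). No member was called lower under any of these. The 9 members called in all of the settings that gave 14 or more were Orc1, Cdc6, Mcm2, Gins1, Gins2, Rfc3, Rfc5, Pola2 and Uhrf1.

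The arrays themselves differed in ways that touch these values. The ratio of the 3′ to the 5′ beta-actin control probe sets, a measure of RNA integrity and labelling, was 1.57 on induced and 1.60 on uninduced replicate 1. It was 1.14 and 1.15 on the other induced arrays and 1.32 and 1.37 on the other uninduced ones. The Gapdh ratio was 0.66, 0.61 and 0.70 on induced and 0.69, 0.79 and 0.76 on uninduced arrays. Both ratios were thus higher in the uninduced array of every same-numbered pair, and the beta-actin ratio was also higher on both arrays numbered 1. Their part in the results was not tested. Of the 10 measured haematopoietic markers 8 were at or above the median level, but of 14 measured B-lineage markers 4 were (Cd79b, Vpreb3, Igll1 and Pax5), and the other 10, among them Cd79a, Ebf1, Rag1 and Rag2, were below it. The summed signal of all 14 ran from 644 to 846 on induced and from 703 to 874 on uninduced arrays. Of 10 measured granulocyte and monocyte markers 8 were at or above the median level. Of the 10, 6 (Adgre1, Csf1r, Ltf, S100a8, S100a9 and Cd68) were lower on every induced array than on every uninduced one, as were 13.4% of all genes. The summed signal of all 10 ran from 656 to 1376 on induced and from 1357 to 3498 on uninduced arrays, and no marker had a signal of 0. Of the haematopoietic markers Ptprc (-0.52 ± 0.19), Il3ra (-0.73 ± 0.21) and Laptm5 (-0.74 ± 0.17) were also lower on every induced array. In all, 7 of these 10 had a negative and 3 a positive fold change. The positive ones were Csf2rb (0.70 ± 0.28), Cd34 (0.46 ± 0.29) and Csf2rb2 (0.28 ± 0.33), each with overlapping groups. The summed signal of all 10 ran from 41480 to 70386 on induced and from 53091 to 76084 on uninduced arrays. Of 4 measured erythroid markers 2 had a positive and 2 a negative fold change, with a median of -0.08. Among them Klf1 was higher on every induced array (1.02 ± 0.16). The summed signal of the 4 was 3907 to 4834 on induced and 2317 to 2381 on uninduced arrays. Of 6 measured mast cell markers 3 had a positive and 3 a negative fold change, and only Ms4a2 and Cma1 were at or above the median level. Cma1 was lower on every induced array (-3.36 ± 0.76), and Cpa3, which was below the median level, was higher (0.92 ± 0.24). The summed signal of the 6 was 123 to 521 on induced and 361 to 1489 on uninduced arrays. The part of any of these cell programmes in the replication results was not tested, and in bulk RNA fewer cells of a type and less RNA per cell cannot be told apart. Of the mouse probe sets of the fusion partners, Jak2 had signals of 1430.1, 1740.2 and 1599.9 on induced and 1175, 3439 and 3081 on uninduced arrays (-0.54 ± 0.41, log2 fold change ± SE), so that uninduced replicate 1 alone was below the induced arrays. Spag9 was lower on every induced array (-0.92 ± 0.33). Without uninduced replicate 1, Jak2 stood at -1.03 and Spag9 at -1.27, with limma adjusted p of 0.0317 and 0.0276. The labels do not say whether these probe sets can detect the construct.

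**Figure D2:**
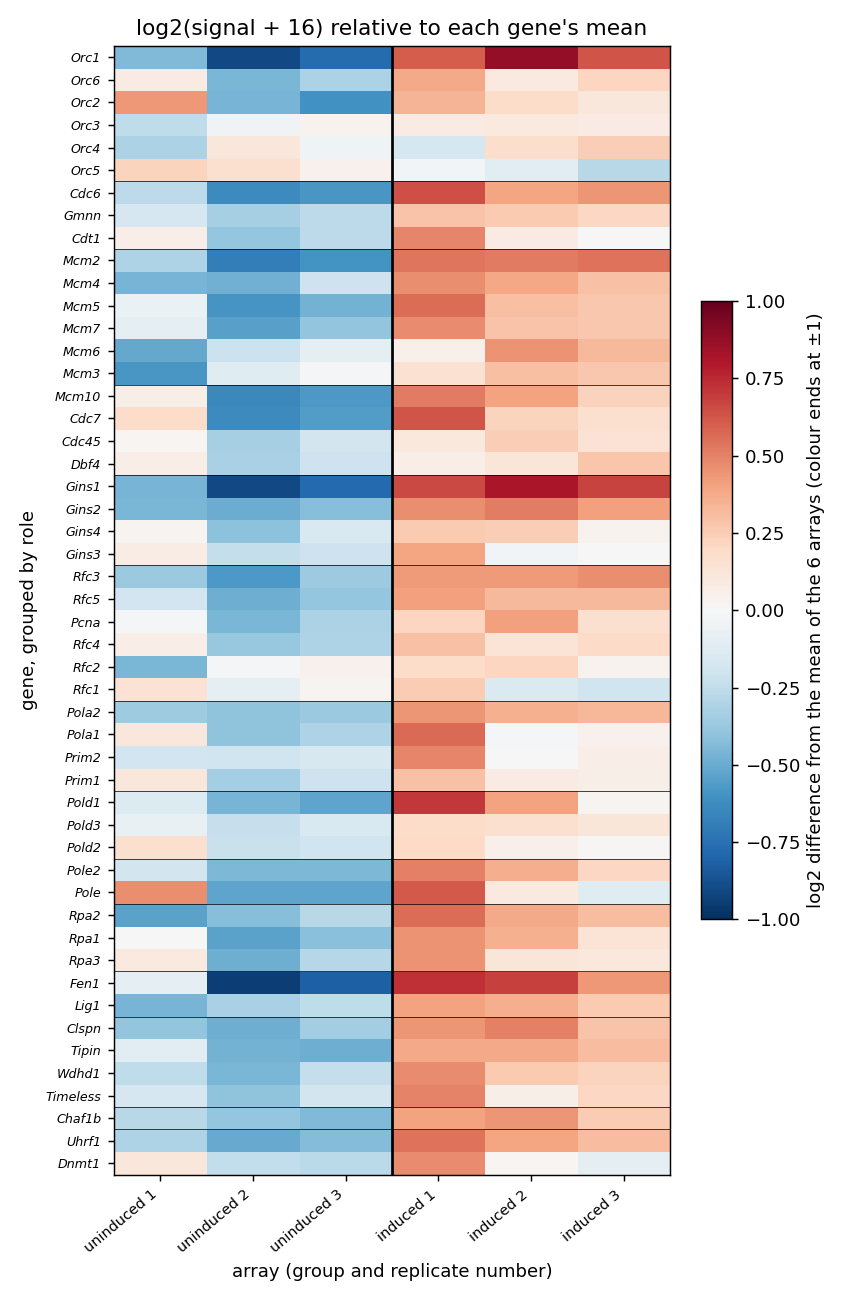
Colour map of log2(signal + 16) for 50 replication genes (rows, grouped by role) on 6 arrays (columns), each gene relative to its mean over the arrays. Induced arrays are mostly red and uninduced arrays mostly blue, with uninduced replicate 1 paler than the others for many genes and Orc5 coloured the other way.

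The region before the start site was examined because most of these genes differed in the same direction and E2F binding sites are textbook elements of their promoters. RefSeq windows (GRCm38.p6) from 250 bases before to 50 after the annotated start were at hand for 42 of the 51 genes. They were searched on both strands for 4 forms of the E2F octamer, TTTCCCGC, TTTCGCGC, TTTGCCGC and TTTGGCGC. At least 1 form was present for 18 of the 42 genes (42.9%), against 2.60% of the 27025 genes with such a window and 2.26% of all windows. The 18 measured genes with an octamer had a median log2 fold change of 0.69 (range 0.17 to 1.41), and the 23 without had 0.50 (range -0.28 to 1.24). The ranges overlapped almost fully, and a missing octamer says only that these letters are not in the window. The sequence CCAAT was present for 25 of the 42 (59.5%) against 41.1% of all genes, and the hexamers TTTGAA or TTCGAA, which occur in cell cycle promoters, for 10 (23.8%) against 21.7%.

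The 160 bases before the start are shown for 7 genes with a single annotated start, 5′ to 3′ on the gene's strand, with octamers on either strand in capitals. The first 5 hold an octamer, although their fold changes ran from 0.25 (Gins3) to 1.41 (Orc1). The last 2 hold none, and they are Mcm2, which was among the members with the largest fold changes, and Orc5, which was lower in induced cells.
Orc1, chr4:108579294-108579453, plus strand: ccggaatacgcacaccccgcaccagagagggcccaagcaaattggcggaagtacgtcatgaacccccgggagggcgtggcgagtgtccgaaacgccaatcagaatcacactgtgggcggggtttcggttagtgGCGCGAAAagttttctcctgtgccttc
Cdc6, chr11:98907991-98908150, plus strand: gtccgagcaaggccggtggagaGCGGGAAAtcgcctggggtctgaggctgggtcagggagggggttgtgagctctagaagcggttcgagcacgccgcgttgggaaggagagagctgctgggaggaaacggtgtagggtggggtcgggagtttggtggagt
Mcm5, chr8:75109349-75109508, plus strand: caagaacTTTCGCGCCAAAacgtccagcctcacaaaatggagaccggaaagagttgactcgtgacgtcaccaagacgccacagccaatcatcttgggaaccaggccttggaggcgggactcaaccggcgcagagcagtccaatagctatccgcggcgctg
Mcm6, chr1:128359706-128359865, minus strand: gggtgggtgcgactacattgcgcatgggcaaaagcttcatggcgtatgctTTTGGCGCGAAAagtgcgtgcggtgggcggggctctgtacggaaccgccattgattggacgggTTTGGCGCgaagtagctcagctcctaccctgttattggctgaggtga
Gins3, chr8:95633399-95633558, plus strand: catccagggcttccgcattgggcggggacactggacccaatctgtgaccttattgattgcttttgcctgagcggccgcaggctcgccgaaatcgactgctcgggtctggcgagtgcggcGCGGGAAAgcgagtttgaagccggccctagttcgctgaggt
Mcm2, chr6:88898781-88898940, minus strand: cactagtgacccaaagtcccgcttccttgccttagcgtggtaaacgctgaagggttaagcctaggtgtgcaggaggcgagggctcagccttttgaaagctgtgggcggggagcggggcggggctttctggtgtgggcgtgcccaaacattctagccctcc
Orc5, chr5:22550339-22550498, minus strand: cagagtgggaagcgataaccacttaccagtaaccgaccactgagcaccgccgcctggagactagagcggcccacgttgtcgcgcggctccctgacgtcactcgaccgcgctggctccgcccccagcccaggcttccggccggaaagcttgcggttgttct

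In these stretches the octamer began 27 bases before the start in Orc1, 138 in Cdc6 and 41 in Gins3. Mcm5 held 2 overlapping octamers on opposite strands, at 153 and 149 bases, and Mcm6 held 3, at 110, 106 and 47 bases. The position of the octamer thus differed between genes.

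**Figure D3:**
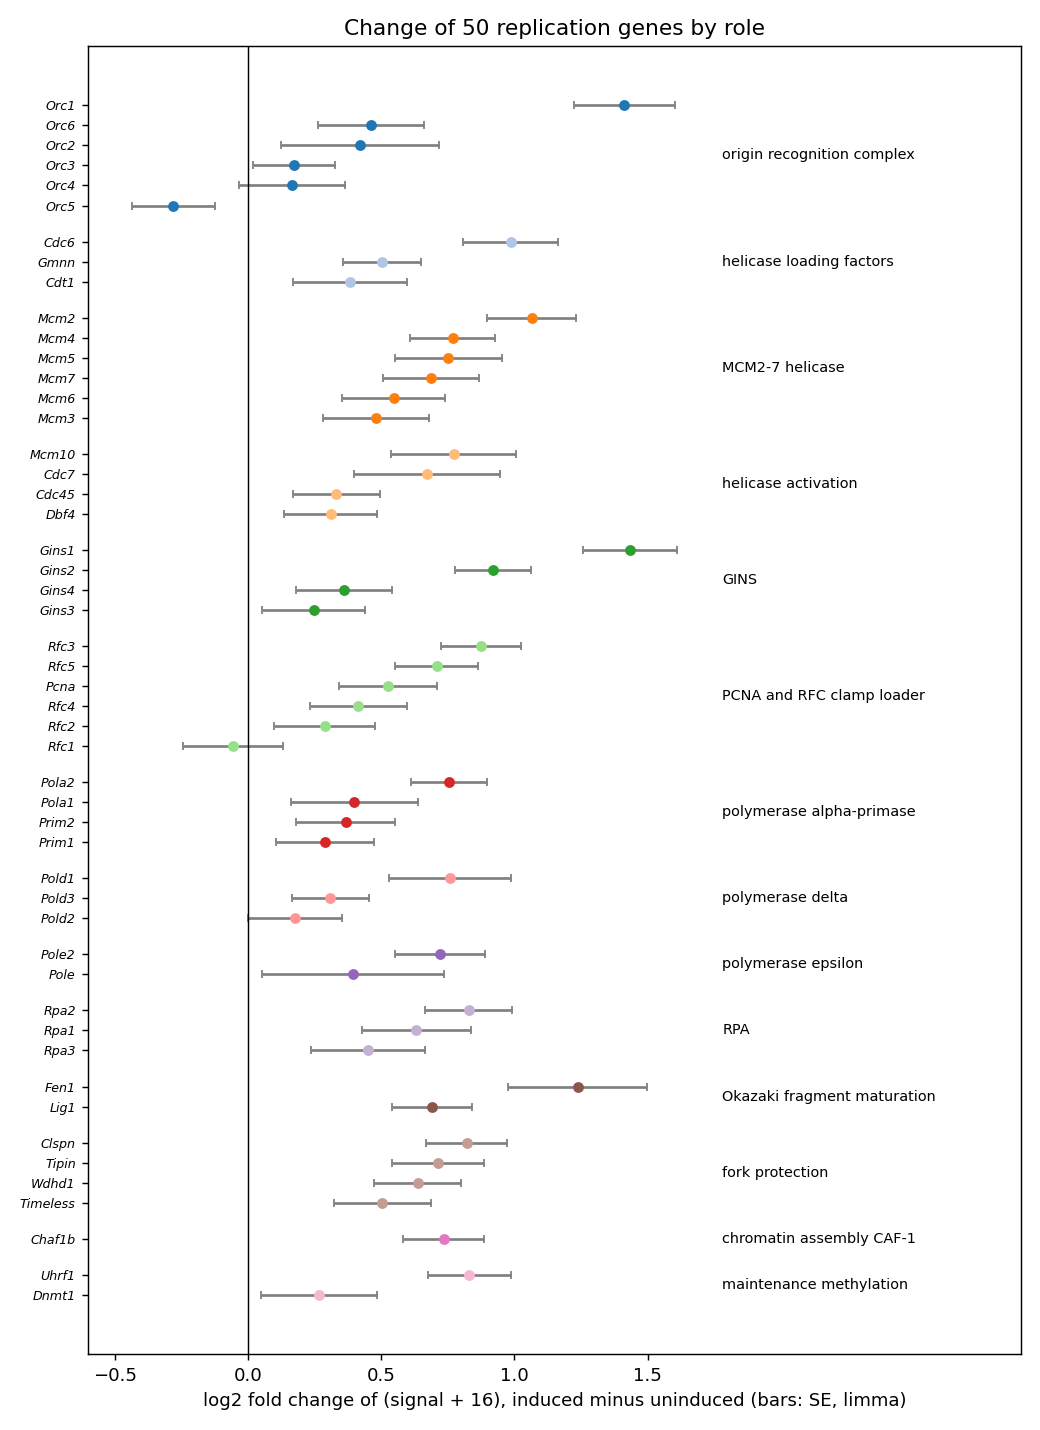
Log2 fold change of (signal + 16), induced minus uninduced, for 50 replication genes (points, bars are the SE from limma) grouped by role. The points run from -0.28 for Orc5 to 1.43 for Gins1, and 48 lie to the right of 0.

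The subunits of ORC differed in direction and size. Orc1, an ATP-binding subunit that is destroyed and rebuilt with the cell cycle, had signals of 720.3, 874 and 732 on induced arrays and 339.6, 242 and 267 on uninduced arrays. The lowest induced array was well above the highest uninduced one. Its log2 fold change was 1.41 ± 0.19 with a limma adjusted p of 0.0700, and 1.54 with an adjusted p of 0.0169 without uninduced replicate 1. Orc6, which joins the ring formed by the other subunits, had signals of 2421, 1989 and 2153 against 1961, 1351 and 1486. These groups were separated by a small gap only, at a log2 fold change of 0.46 ± 0.20.

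The other subunits of the complex, Orc2, Orc3, Orc4 and Orc5, showed smaller differences with all 6 arrays. Orc5 had signals of 1642, 1551 and 1381 on induced and 1962, 1875 and 1725 on uninduced arrays, all uninduced values being higher, and a log2 fold change of -0.28 ± 0.16 (limma adjusted p of 0.406). Orc4 had signals of 1378, 1767 and 1851 against 1253, 1688 and 1511, which overlapped (0.16 ± 0.20), and its 3 other probe sets gave from -0.01 to 0.71. Orc3 stood at 0.17 ± 0.16. Without uninduced replicate 1, Orc4 stood at 0.048 and Orc3 at 0.088. Orc2 stood at 0.42 ± 0.30, with uninduced replicate 1 (1377) the highest of all 6 arrays and the other uninduced arrays at 730.2 and 662. Without that array Orc2 stood at 0.74, just past the threshold in limma. Within arrays, the log2 ratio of Orc1 to Orc5 was 1.69 ± 0.16 (SE) larger in induced cells and did not overlap between groups. Orc1 and Orc5 were set against each other because they were the extremes of the complex, so no test is given.

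Cdc6, the ATPase that recruits the helicase to ORC, had signals of 2032, 1702 and 1765 on induced and 1078, 828 and 858 on uninduced arrays. Every induced array lay well above every uninduced one, at 0.99 ± 0.18 with a limma adjusted p of 0.0989 and, without uninduced replicate 1, 0.0266. Cdt1, the partner of Cdc6 in loading, stood at 0.38 ± 0.21 with groups that overlapped. Gmnn, the inhibitor of Cdt1, stood at 0.50 ± 0.15, and its groups did not overlap.

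All 6 subunits of the replicative helicase were higher on every induced array than on every uninduced array, as were 10.7% of all genes. Their log2 fold changes ran from 0.48 ± 0.20 for Mcm3 to 1.06 ± 0.17 for Mcm2, with a median of 0.72. Without uninduced replicate 1, Mcm3 stood at 0.31. Mcm2 had signals of 3821, 3788 and 3833 on induced and 2123, 1626 and 1731 on uninduced arrays. The induced arrays were almost level with one another, with an SD of 23.4 against 262 for the uninduced ones. Mcm4 had signals of 9842, 9315 and 8723 against 5134, 5099 and 6169.8, a clear gap between groups at 0.77 ± 0.16.

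The remaining MCM subunits were Mcm5 (0.75 ± 0.20), Mcm7 (0.69 ± 0.18) and Mcm6 (0.55 ± 0.19), and the limma adjusted p over the 6 subunits ran from 0.0850 to 0.283. Without uninduced replicate 1, 3 of the 6 passed in limma, Mcm2, Mcm5 and Mcm7. That array was the highest uninduced array for Mcm2, Mcm5 and Mcm7 and the lowest for Mcm3 and Mcm6. Induced replicate 1 was likewise the lowest induced array for Mcm3 and Mcm6, with 6204 and 11056, and the highest for Mcm5 and Mcm7. Because no subunit overlapped between groups, the difference within same-numbered arrays was positive for all 6 in all 3 pairs. The medians of the pairs were 0.67, 0.85 and 0.58.

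Mcm10, which acts as the helicase opens the origin, had signals of 1947, 1792 and 1589.8 on induced and 1408, 859 and 902 on uninduced arrays. The groups did not overlap, at 0.77 ± 0.23, and 2 dimmer probe sets gave 1.29 and 1.35. Cdc7, the kinase that phosphorylates the MCM ring, had signals of 2136, 1608 and 1537 against 1565, 879.8 and 931. Uninduced replicate 1 exceeded the lowest induced array, so the groups overlapped (0.67 ± 0.27). Its activator Dbf4 stood at 0.31 ± 0.17, with no difference within the arrays numbered 1. Cdc45, a subunit of the active helicase, had signals of 908, 1005 and 931 against 852, 668 and 739.9, at 0.33 ± 0.16 without overlap. A second probe set of Cdc45, near the median level of the array, gave -0.49.

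The GINS complex, which joins Cdc45 and the MCM ring, held the member with the smallest p. Gins1 had signals of 2344, 2622 and 2367 on induced and 1065, 782 and 857 on uninduced arrays, and every induced array was far above every uninduced one. Its log2 fold change was 1.43 ± 0.18, a 2.70-fold difference, with a limma adjusted p of 0.0599 and, without uninduced replicate 1, 0.0140. Gins2 had signals of 1368, 1416 and 1317 against 718, 696 and 733, with little spread in either group, at 0.92 ± 0.14 (limma adjusted p of 0.0832). The other subunits differed less, with Gins4 at 0.36 ± 0.18 and Gins3 at 0.25 ± 0.19, the latter with overlapping groups. The log2 ratio of Gins1 to Gins3 within arrays was 1.19 ± 0.18 (SE) larger in induced cells and did not overlap, a pair chosen as the extremes and given without a test.

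Pcna, the clamp that tethers polymerases, stood at 0.53 ± 0.18, with signals from 24839 to 29574 on induced and from 16189.9 to 22017 on uninduced arrays. Rfc3, a small subunit of the loader, had signals of 1648, 1648 and 1692 against 942, 814 and 947, a wide gap at 0.88 ± 0.15 (limma adjusted p of 0.0897). Rfc5 had signals of 5007, 4740.1 and 4738 against 3311, 2689 and 2883, again without overlap, at 0.71 ± 0.16. Rfc4 stood at 0.41 ± 0.18 and Rfc2 at 0.29 ± 0.19, or at 0.13 without uninduced replicate 1.

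Rfc1, the large subunit, stood apart from the small ones. Its signals were 2376, 1796 and 1732 on induced and 2200.4, 1870.0 and 2023 on uninduced arrays. The groups overlapped fully, at -0.06 ± 0.19, and this sign turned with other settings and probe sets, of which 2 others gave 0.11 and 0.62. Within arrays the log2 ratio of Rfc3 to Rfc1 was 0.93 ± 0.16 (SE) larger in induced cells, without overlap, for this pair of extremes.

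In polymerase alpha-primase, which lays down primers, Pola2, the accessory subunit, had signals of 1771, 1662 and 1642 on induced and 1009, 976 and 1003 on uninduced arrays. The spread within each group was small beside the gap, at 0.75 ± 0.14 (limma adjusted p of 0.106). Prim2, the large primase subunit, had signals of 1792, 1269 and 1335 against 1116, 1105 and 1140.1, at 0.37 ± 0.18, where induced replicate 1 was the high array. The catalytic subunits Pola1 and Prim1 stood at 0.40 ± 0.24 and 0.29 ± 0.18 with overlapping groups.

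Among the subunits of polymerase delta, which copies the lagging strand, the catalytic Pold1 had signals of 2400.4, 1936 and 1491 against 1328, 1053 and 1009.6. Its groups did not overlap, but the induced arrays spread widely (0.76 ± 0.23). Pold3 stood at 0.31 ± 0.14 and Pold2 at 0.17 ± 0.18, or at 0.30 without uninduced replicate 1. The subunit Pold4, which is not among the 51 genes, went the other way. It was lower on every induced array, at -1.40 ± 0.39 (limma adjusted p of 0.169). Without uninduced replicate 1, Pold4 stood at -1.86 with a limma adjusted p of 0.0133. For Pold3 the size depends on the probe set, because 2 others of nearly the same level gave 0.84 and 1.02. For polymerase epsilon, which copies the leading strand, Pole2 had signals of 2868, 2588 and 2332 against 1769.7, 1471 and 1472, without overlap, at 0.72 ± 0.17. Its catalytic partner Pole stood at 0.39 ± 0.34, with uninduced replicate 1 (1415) near the highest induced array (1569.6). Without that array Pole stood at 0.73.

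All 3 subunits of RPA, which coats single-stranded DNA, were higher on every induced array, as were 10.7% of all genes. Rpa2 had signals of 4202, 3718 and 3536 on induced and 1961, 2121 and 2351 on uninduced arrays, at 0.83 ± 0.16, and Rpa1 and Rpa3 stood at 0.63 ± 0.20 and 0.45 ± 0.21. Fen1, the nuclease that trims Okazaki fragments, had signals of 7058, 6834 and 5737 against 3953, 2202 and 2402. It did not overlap between groups, at 1.24 ± 0.26 (limma adjusted p of 0.121), and uninduced replicate 1 was 0.78 above the mean of the other uninduced arrays on the log2 scale. Without that array its limma adjusted p was 0.0183. Lig1, the ligase that seals the fragments, stood at 0.69 ± 0.15 without overlap.

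The 4 genes that stabilise or couple the fork were all higher on every induced array, as were 10.7% of all genes. Clspn, the adaptor of the replication checkpoint, had signals of 2217, 2316 and 1983 on induced and 1235, 1155 and 1271 on uninduced arrays, at 0.82 ± 0.15. Tipin, the partner of Timeless, had signals of 6365, 6379 and 6071 against 4558, 3519.9 and 3477, at 0.71 ± 0.17. Both gaps exceeded the spread within either group. Wdhd1, which links the helicase to polymerase alpha, stood at 0.64 ± 0.16 and Timeless at 0.50 ± 0.18.

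Chaf1b, a subunit of the histone chaperone CAF-1 that builds nucleosomes behind the fork, had signals of 1077, 1108 and 973 against 668, 618 and 594. These did not overlap, at 0.73 ± 0.15, although a much dimmer probe set gave -0.54. Uhrf1, which reads half-methylated DNA behind the fork, had signals of 4671, 4214 and 3983 against 2584, 2259 and 2367, without overlap, at 0.83 ± 0.16 (limma adjusted p of 0.105). Dnmt1, the methyltransferase that Uhrf1 recruits, stood at 0.27 ± 0.22 with overlapping groups. Within arrays the log2 ratio of Uhrf1 to Dnmt1 was 0.56 ± 0.13 (SE) larger in induced cells and did not overlap. The larger fold change was put first, which fixes the direction, so no test is given. Such ratios of the extremes of a role overlapped for Mcm2 and Mcm3, Mcm10 and Dbf4, Pole2 and Pole, and Fen1 and Lig1. They did not overlap for the other roles with several measured genes.

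The same direction was seen within same-numbered arrays, although the labels do not say that the numbers pair cultures. Of the 50 members 45 were higher in the induced array of all 3 pairs, as were 18.6% of all genes. In the 36 members whose induced arrays all lay above the uninduced ones, this holds under any numbering and adds nothing. The median difference over members was 0.52, 0.68 and 0.50 for numbers 1, 2 and 3. For number 1 the largest differences were those of Gins1 (1.13), Rpa2 (1.09) and Orc1 (1.05). Orc2 was lower in the induced array there (-0.10) and higher in the pairs numbered 2 and 3 (0.65 and 0.71). Rpa2, Mcm3 and Rfc2 ran the other way, with larger differences in the arrays numbered 1 (1.09, 0.73 and 0.64) than in those numbered 3 (0.59, 0.29 and -0.01).

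**Figure D4:**
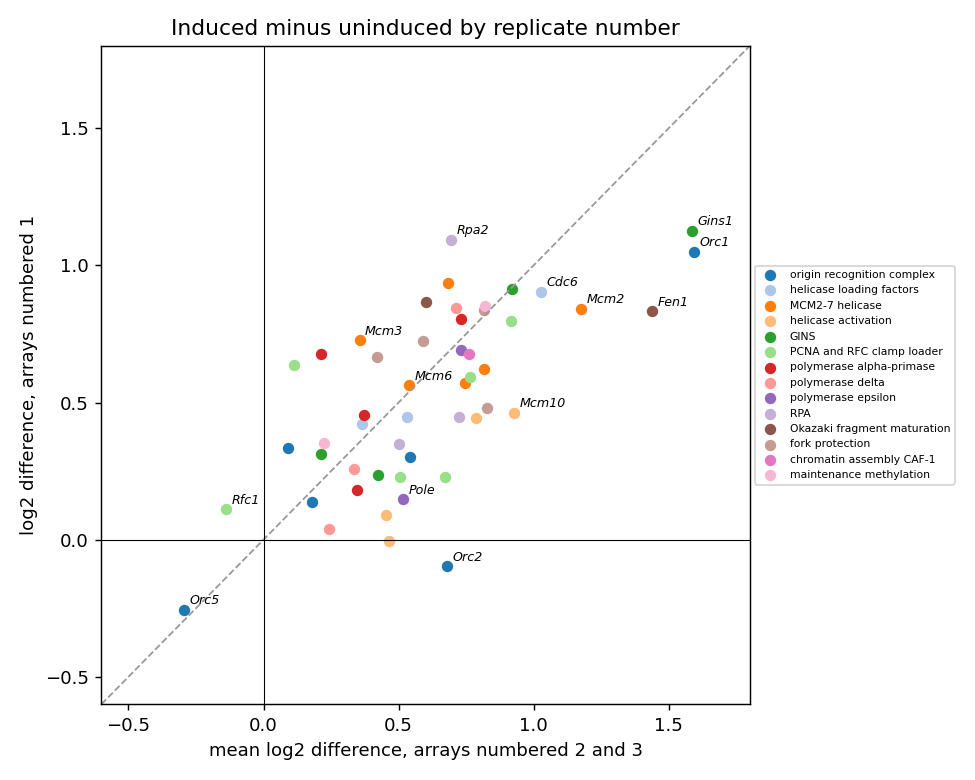
Log2 difference of induced minus uninduced in the arrays numbered 1 (vertical axis) against the mean difference in the arrays numbered 2 and 3 (horizontal axis) for 50 replication genes coloured by role, with a dashed line of equality. Gins1, Orc1 and Fen1 lie furthest right, and Orc2 lies just below 0 on the vertical axis.

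Probe sets that the choice of the brightest left out gave mostly the same direction. There were 49 other probe sets at or above the median level, in 34 members, and 46 of them were positive, with a median log2 fold change of 0.60. They read the same RNA on the same arrays and are no further replicates. In 30 of the 34 members all such probe sets had the same sign, and the exceptions were Orc4, Rfc1, Cdc45 and Chaf1b. The sizes differed by a median of 0.16 from the probe set used.

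**Figure D5:**
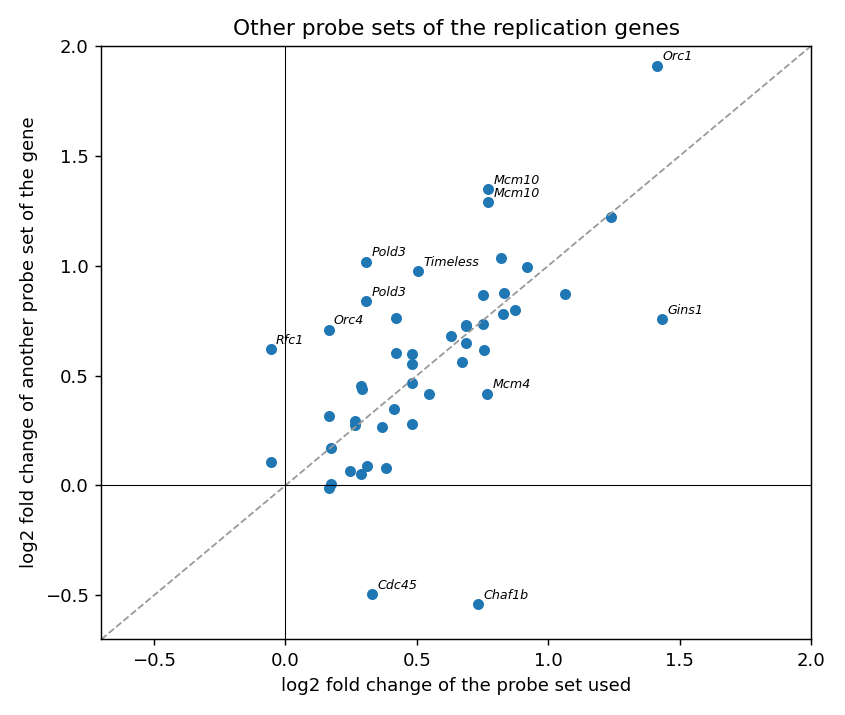
Log2 fold change of 49 other probe sets (vertical axis) against that of the brightest probe set of the same gene (horizontal axis), with a dashed line of equality and names where they differ by more than 0.35. Cdc45 and Chaf1b each have a dim probe set below 0, and Pold3, Mcm10 and Rfc1 have others well above the one used.

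Other genes of DNA replication, from a list of 48 with 47 measured, were mostly higher too, with a smaller median. None passed an adjusted p of 0.05 in limma (0 of 47). At an unadjusted p under 0.05, 15 were higher and 3 lower (Polk, Pold4 and Cul4a), where 7.14% of all genes were higher and 10.3% lower, and the median log2 fold change was 0.33. By smallest p these were Rnaseh2b, a subunit of the nuclease that removes ribonucleotides (0.84 ± 0.16), Cdc25a, the phosphatase that activates cyclin-dependent kinases for S phase (0.86 ± 0.17), and Polk, a translesion polymerase, which was lower (-1.01 ± 0.21). Of the genes that supply deoxynucleotides, 12 of 13 were measured, 6 were higher and 1 was lower at an unadjusted p under 0.05 in limma (7.14% and 10.3% of all genes), 0 passed the adjusted threshold, and the median was 0.50. They included Tk1, thymidine kinase (0.64 ± 0.16), Rrm1, the large subunit of ribonucleotide reductase (0.61 ± 0.17), and its p53-inducible small subunit Rrm2b, which was lower (-0.70 ± 0.19).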

How the data were processed

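RNA of 3 induced and 3 uninduced cultures was hybridised to 6 Affymetrix mouse arrays. The deposited values are signal intensities on a linear scale, made with Affymetrix Expression Console 1.4.1 per the submitters' processing notes. No label names the summary algorithm. The values show that each array was scaled to a trimmed mean of 500. Groups and replicate numbers came from the titles. These were analysed as log2(signal + 16). Of 45037 probe sets that are no controls, 34945 had 1 gene symbol, 932 several and 9160 none, and 34741 symbols matched RefSeq by Entrez number. The brightest probe set stood for its gene.

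The 18193 genes were fitted with limma 3.58.1 in R 4.3.3 (lmFit, eBayes) on 4 residual degrees of freedom, without the replicate number, and the procedure was tested on simulated data. In the simulation it called 0.4% of genes changed by 0.5 on the log2 scale, 30.8% of those changed by 1 and 75.2% of those changed by 2. Of its calls 3.7% were false. Most changes of the size seen in the members would thus not have been called. The tests were two-sided, with p-values adjusted by Benjamini-Hochberg across the 18193 genes and a threshold of 0.05. The labels do not say that cultures were independent experiments, so p-values measure the spread between these cultures only, and the number of arrays limits precision. Same-numbered arrays deviated together from their group means (r of 0.30, 0.15 and 0.22 for numbers 1, 2 and 3, over 10693 genes). However, induced replicate 2 and uninduced replicate 3 also correlated (0.13), as did induced replicate 3 and uninduced replicate 2 (0.20). The values thus do not tell which arrays numbered 2 and 3 belong together. Differences within same-numbered arrays rest on the assumption that the numbers pair the arrays. Members and gene lists were chosen with earlier results of these data known. Array values are given for the members with the smallest p of each role, those with a fold change below 0 and those whose probe sets disagree in sign. Figures were drawn with matplotlib 3.10.9.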

Additional observations from a re-analysis of the deposited data

How the results depend on the processing

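Of the 50 members 44 kept the sign of their fold change in all 19 settings run, the one reported included, and between 44 and 49 members were positive. Members past the threshold numbered 0 as reported, with the replicate block, with replicate 1 as a batch and at an adjusted p of 0.01. In limma they numbered 1 with median centring or the filter at the 25th percentile (Gins1 in both), 14 with the filter at the median or a pseudocount of 64 (the same 14 genes), 19 with trended and robust variance, and from 0 to 19 when arrays were left out. All calls were higher in induced cells. The members' median log2 fold change ran from 0.52 to 0.66 when arrays were left out.

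Genes past the threshold numbered 34, of which 21 were higher, 24 of 30 were higher with median centring, and 6 of 25 were higher and 19 lower with replicate 1 as a batch. The count of genes past the threshold was 0 with the replicate block, 0 at an adjusted p of 0.01, 0 with a pseudocount of 1, 19 with the most variable probe set, 255 with a pseudocount of 64, 342 with the filter at the median, 550 with trended and robust variance and from 0 to 1477 when arrays were left out (0 without induced replicate 2, uninduced replicate 2 or uninduced replicate 3, 1 without induced replicate 3, 12 without induced replicate 1, 1453 without uninduced replicate 1 and 1477 without both arrays numbered 1). The smaller family of genes at or above the median level is part of that filter's construction; for the others the cause was not tested. The replicate block changed no other call.

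Signs turned in 6 genes. With the most variable probe set Mcm6 (-0.83), Cdc45 (-0.49), Pola1 (-0.22), Pola2 (-0.27) and Prim2 (-0.21) were negative and Rfc1 was 0.62. With the mean of probe sets Cdc45 was -0.081 and Rfc1 0.22. Rfc1 was also 0.011 with median centring and from -0.20 to 0.028 when arrays were left out.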

Other observations

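Of 18 E2F, DP, pocket protein and MuvB genes 10 were positive and 8 negative, with a median log2 fold change of 0.03, and 0 passed the adjusted threshold in limma, while 2 were higher and 3 lower at an unadjusted p under 0.05. These counts are near the shares over all genes, 7.14% higher and 10.3% lower. Rb1, the retinoblastoma protein that restrains E2F, had signals of 2544, 2044 and 2449 on induced and 4108, 7878 and 7499 on uninduced arrays. The groups did not overlap, at -1.41 ± 0.29, and without uninduced replicate 1 the limma adjusted p was 0.0152. Mybl2, a cell cycle transcription factor and E2F target, stood at 0.68 ± 0.15, and Tfdp2, a partner of E2F factors, at -0.78 ± 0.22.

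Of 24 measured mitotic genes 18 were positive, with a median of 0.18 and 4 higher and 0 lower at an unadjusted p under 0.05 in limma (7.14% and 10.3% of all genes), and 0 passed the adjusted threshold. The 3 with the smallest p were Kif20a, a kinesin of cytokinesis (0.82 ± 0.17), Birc5, the survivin subunit of the chromosomal passenger complex (0.64 ± 0.16), and Bub1, a spindle checkpoint kinase (0.42 ± 0.14). The difference between the mitotic and replication lists was not tested.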
